A study of Mus musculus with 24 samples.

Results

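Tnfrsf25 encodes death receptor 3, a member of the tumour necrosis factor (TNF) receptor superfamily, and it is 1 gene (ENSMUSG00000024793) of the 37621 entries counted in 24 RNA libraries of the mouse brain. It was selected on its measured values, namely its level per library, the difference between Cdr1as knockout and wild-type libraries in each region, and its wild-type level across regions. Those quantities are therefore given as a description, without a p-value. Tests are given for other genes only.

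The study sequenced total RNA, depleted of ribosomal RNA, from dissected cerebellum, cortex, hippocampus and olfactory bulb of C57BL/6 mice. Each region had 3 libraries labelled Cdr1as knockout and 3 labelled wild type, and the labels give no treatment, age or sex. Cdr1as, the RNA that was deleted, is circular, abundant in neurons and dense in sites for miR-7, and miR-671 directs its cleavage. The labels do not say whether the 3 libraries of a group came from separate animals, so every SD, SE and p-value measures the spread between these libraries, which may be technical.

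Death receptor 3 spans the plasma membrane and carries a death domain in its cytoplasmic part. Its ligand is TL1A, the product of Tnfsf15. Upon binding, the death domain recruits the adaptor TRADD, from which RIPK1 and TRAF2 lead to NF-κB and MAP kinase signalling, whereas FADD and caspase 8 lead to apoptosis. The receptor is best known on T cells and innate lymphoid cells, where it acts as a costimulator.

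Gene counts summed to between 5.18 and 30.46 M per library, with 3 libraries under 8 M (cerebellum knockout 1, olfactory bulb wild type 1 and olfactory bulb knockout 2). Genes detected, with at least 1 read, numbered 13741, 16483 and 14393 in these, beside 20024 in cortex wild type 2 with 9.9 M counts. Cdr1as lay between 0 and 0.662 CPM (TMM-scaled counts per M) in the 12 libraries labelled knockout and between 365 and 4354 CPM in the 12 labelled wild type. In each region the mean log2(CPM + 1) of that region's marker genes was higher in all 6 of its own libraries than in any other library. In cerebellum, for example, the lowest own library had 8.0 and the highest other library 2.09. The margin was smallest for the cortex markers, at 6.71 against 5.55. Reads outside annotated features made up 20.3% to 62.9% of the reads of a library. Tnfrsf25 was counted in every library, with 10 to 812 reads each and 4018 in all.

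Tnfrsf25 was highest in hippocampus and lowest in cerebellum, and in each of the 4 regions its 3 knockout libraries lay above its 3 wild-type libraries. In hippocampus, wild-type libraries 1, 2 and 3 had 12.4, 20.8 and 17.3 CPM (mean 16.8 ± 4.21, SD, n = 3), from 308, 320 and 354 reads. The knockout libraries had 31.8, 37.0 and 37.1 CPM (35.3 ± 3.02, SD, n = 3), from 481, 812 and 665 reads. The groups did not overlap, and the fitted log2 fold change of knockout over wild type was 1.07 (SE 0.18), or 2.11-fold on the edgeR scale.

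The cortex showed the largest fold of the 4 regions. Its wild-type libraries had 1.60, 3.59 and 2.61 CPM (2.60 ± 0.994, SD, n = 3), from 25, 35 and 67 reads. The knockout libraries had 7.52, 14.7 and 11.6 CPM (11.3 ± 3.62, SD, n = 3), from 171, 325 and 167 reads. Even the lowest knockout library was above the highest wild-type library, and the log2 fold change was 2.12 (SE 0.36), or 4.35-fold. Library 1 was the lowest and library 2 the highest in both genotypes of the cortex, and the ratio of the same-numbered libraries was 4.69, 4.11 and 4.45.

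In the olfactory bulb the gene was low and the groups lay close together. The wild-type libraries had 1.99, 1.58 and 1.23 CPM (1.60 ± 0.378, SD, n = 3), and the knockout libraries 2.69, 3.33 and 2.99 CPM (3.0 ± 0.317, SD, n = 3). The log2 fold change was 0.88 (SE 0.69), and 0.94 (SE 0.31) without the libraries under 8 M counts, which were wild type 1 with 16 reads of Tnfrsf25 and knockout 2 with 19.

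In cerebellum Tnfrsf25 was close to the limit of what these libraries can count, and 1 library carried much of the difference. The wild-type libraries had 0.399, 0.617 and 0.786 CPM (0.601 ± 0.194, SD, n = 3), from 12, 10 and 13 reads. The knockout libraries had 3.36, 1.17 and 0.948 CPM (1.83 ± 1.33, SD, n = 3), from 23, 20 and 16 reads. Knockout 1 stood apart from the other two, and it was also the library of 6.5 M counts in which 37 of the 81 genes of the pathway lists used below had a count of 0. With all libraries the log2 fold change was 1.57 (SE 0.79), and without knockout 1 it was 0.86 (SE 0.42).

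**Figure D1:**
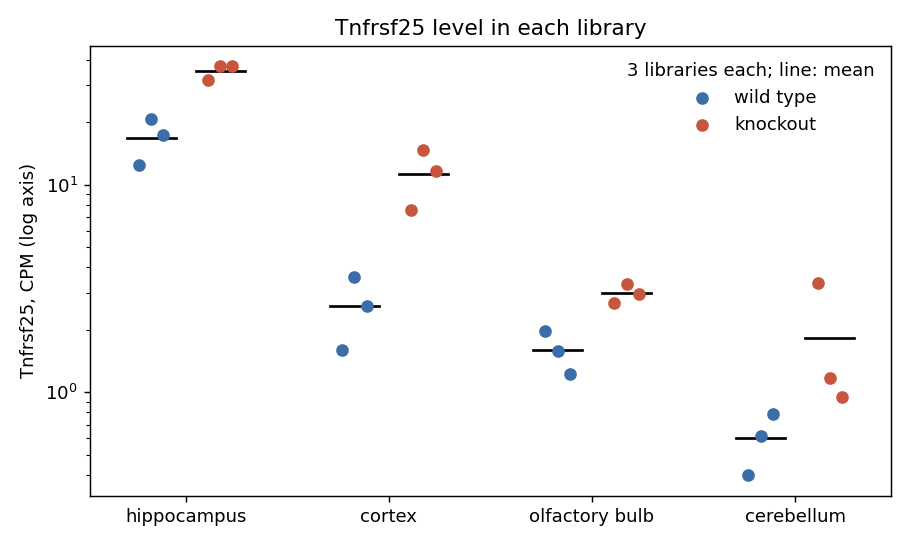
Tnfrsf25 level in each of the 24 libraries, in CPM on a log axis, by region; each point is 1 library, colours mark genotype and each line is the mean of 3. The knockout points lie above the wild-type points in every region, from 0.399 CPM in a cerebellum wild-type library to 37.1 CPM in a hippocampus knockout library.

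Averaged over the 4 regions, the log2 fold change of Tnfrsf25 was 1.32 (SE 0.24, limma on regional means), or 2.5-fold. The share of all tested genes whose 3 knockout libraries lay above the 3 wild-type libraries was 4.89% in cerebellum, 7.61% in cortex, 5.65% in hippocampus and 8.09% in olfactory bulb. It was 0.167% for all 4 regions at once, or 24 of 14411 genes. Because the gene was chosen on this contrast, nothing is read from its place among them. By log2 fold change Tnfrsf25 ranked 1st of the 24 in cortex, 3rd in cerebellum, 3rd in hippocampus and 7th in olfactory bulb. The others were Aff1, Arhgef7, Arid5a, Banp, Bicdl1, Dnase1l2, Ehbp1l1, Elmsan1, Fos, Mfhas1, Mknk2, Myh9, Nr4a1, Nr4a3, Per1, Phf13, Plat, Ptpn1, Rin3, Sik2, Tbx6, Tjap1 and Tmem214. Fos, Nr4a1, Nr4a3 and Per1 among them are transcriptional regulators known to be induced by stimulation of cells. In dissected tissue, a gain in cells that express the gene cannot be told apart from more RNA per cell.

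The level of Tnfrsf25 moved with the share of reads outside annotated features in some regions. In cortex that share was 30.5%, 53.7% and 33.6% in knockout libraries 1, 2 and 3, and 20.3%, 56.2% and 34.9% in wild-type libraries 1, 2 and 3. The libraries with the highest share were also those with the most Tnfrsf25. The deviation of log2 CPM from its group mean had a Pearson correlation with the deviation of the share of 0.92 over the 6 cortex libraries, 0.793 over the 6 of hippocampus, 0.44 in olfactory bulb, 0.194 in cerebellum and 0.581 over all 24. These are descriptions across libraries that share their depth and composition.

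With this share as a covariate, the log2 fold change was 2.03 (SE 0.20) in cortex, 0.93 (SE 0.14) in hippocampus, 0.93 (SE 0.82) in olfactory bulb and 1.51 (SE 0.98) in cerebellum. The part of the share in the difference between genotypes was not tested.

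**Figure D2:**
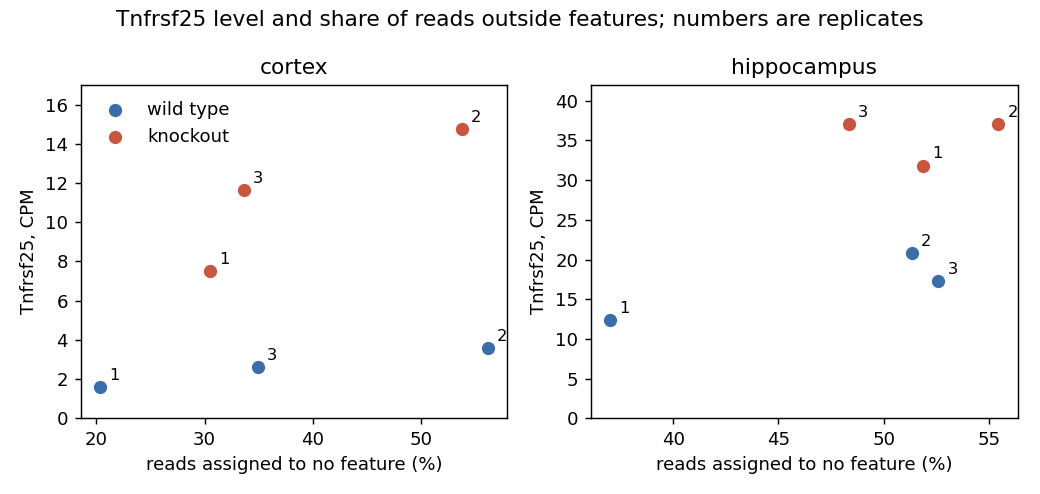
Tnfrsf25 level (CPM) against the share of reads assigned to no feature (%) in the 6 libraries of cortex (left) and the 6 of hippocampus (right); each point is 1 library, labelled by its replicate number, and colours mark genotype. In cortex the library with the highest share has the highest level in each genotype (14.7 CPM in knockout and 3.59 CPM in wild type).

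Across regions the order of the wild-type means was hippocampus, cortex, olfactory bulb and cerebellum. The lowest wild-type hippocampus library, at 12.4 CPM, was above the highest cortex library, at 3.59 CPM. Cortex, at 1.60 to 3.59 CPM, and olfactory bulb, at 1.23 to 1.99 CPM, overlapped. The lowest olfactory bulb library, at 1.23 CPM, was above the highest cerebellum library, at 0.786 CPM. Against the mean of the other three regions, the wild-type log2 difference was 3.63 (SE 0.24) in hippocampus, 0.04 (SE 0.26) in cortex, -0.87 (SE 0.31) in olfactory bulb and -2.80 (SE 0.34) in cerebellum.

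In the 12 knockout libraries, whose levels also entered the choice of the gene through the genotype difference, the same regional differences are given without a test. Hippocampus exceeded the mean of the other three regions by 3.21 on the log2 scale (SE 0.27), or 9.28-fold. For cortex the difference was 1.01 (SE 0.28). The olfactory bulb lay at -1.54 (SE 0.34) and cerebellum at -2.69 (SE 0.37).

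All 3 hippocampus knockout libraries (31.8 to 37.1 CPM) lay above all 3 of cortex (7.52 to 14.7 CPM), which lay above all 3 of olfactory bulb (2.69 to 3.33 CPM). Cerebellum knockout 1, at 3.36 CPM, was above the olfactory bulb libraries, and the other two, at 0.948 and 1.17 CPM, were below them. Without that library the cerebellum difference was -3.30 (SE 0.30).

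Tnfrsf25 lies on chromosome 4 of the GRCm38 build, at chr4:152115934-152120119 on the plus strand, with 2277 bases of exon in all annotated transcripts together. The 250 bases before its first RefSeq start, chr4:152115684-152115933 on the plus strand of GRCm38.p6, are shown because they lie between Tnfrsf25 and its upstream neighbour, whose levels are compared with it further on. The sequence is RefSeq's, and the capitals mark a match to the core TGACG of the CREB binding site, read on the opposite strand.

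Tnfrsf25 promoter: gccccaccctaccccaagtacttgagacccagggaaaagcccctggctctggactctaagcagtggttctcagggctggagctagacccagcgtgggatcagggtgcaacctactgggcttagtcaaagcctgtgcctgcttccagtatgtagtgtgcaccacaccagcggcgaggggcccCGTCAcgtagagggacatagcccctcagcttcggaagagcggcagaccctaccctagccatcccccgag

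This stretch was 61.6% G and C and held 8 CpG. The marked match began 69 bases before the start, and 17.8% of 32851 RefSeq promoters of the same length held TGACG on either strand. Neither this window nor the one before a second RefSeq start inside the gene held the full cyclic AMP element TGACGTCA (1.55% of promoters), the AP-1 motif TGACTCA (4.46%), the EGR motif GCGTGGGCG (0.536%) or the Sp1 motif GGGCGG (32.7%). The NF-κB consensus was absent from the first window and matched once in the second, and 7.25% of promoters held it. All were searched on both strands, and TGACGTCA contains TGACG. A match in letters describes the window and is not a measured binding site.

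Since the deleted RNA is known for its sites for miR-7 and miR-671, the 3′ UTR of Tnfrsf25 was searched for the seed matches of these microRNAs. Their mature sequences from RefSeq are given with the seed in capitals, and the miR-7 pair shares 1 seed.

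mmu-miR-7a-5p: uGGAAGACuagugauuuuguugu

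mmu-miR-7b-5p: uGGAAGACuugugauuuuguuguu

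mmu-miR-671-5p: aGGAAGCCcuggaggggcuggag

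The 3′ UTRs of Tnfrsf25 were 280 and 272 bases long in its annotated coding transcripts. They held 0 matches to GTCTTCC or TCTTCCA, the sites of miR-7, and 0 to GGCTTCC or GCTTCCA, the sites of miR-671-5p. Among 845 mouse 3′ UTRs within 10% of the longer one, these motifs were present in 3.31%, 3.79%, 3.08% and 3.67%. The absence of these letters says nothing of sites elsewhere in the transcript.

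Tnfrsf25 has close neighbours on both sides and overlaps no annotated gene. Plekhg5, an exchange factor for small GTPases, ends 533 bases before it on the same strand, and Espn, an actin-bundling protein, lies 211 bases after it on the opposite strand. Nol9, a kinase of ribosomal RNA processing, lies 54439 bases before. The taste receptor Tas1r1, the pseudogene Gm13077 and the transcription factor Hes2 were too low to be tested.

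Plekhg5 was also nominally higher in cortex knockout, by less than Tnfrsf25. Its cortex wild-type libraries had 73.5, 72.2 and 71.6 CPM (72.4 ± 0.966, SD, n = 3), and its knockout libraries 105, 107 and 98.9 CPM (104 ± 4.36, SD, n = 3). The groups did not overlap, but the log2 fold change of 0.49 (SE 0.11) did not pass over all genes (edgeR adjusted p = 0.701, unadjusted p = 0.00159). In hippocampus it had 163 ± 34.7 CPM in wild type and 197 ± 6.00 CPM in knockout (SD, n = 3), with a log2 fold change of 0.27 (SE 0.14, edgeR adjusted p = 0.953). In olfactory bulb and cerebellum its log2 fold changes were 0.11 (SE 0.22) and 0.46 (SE 0.33), with edgeR adjusted p = 0.992 and 0.949. Nol9 had values of -0.18 in cerebellum, 0.21 in cortex, -0.06 in hippocampus and -0.00 in olfactory bulb. Espn had -1.05 (SE 0.91), 0.47 (SE 0.48) and -0.34 (SE 0.355) in the first 3 regions, and was too low to test in the bulb. Its cerebellum libraries had 0, 51 and 43 reads in knockout and 126, 58 and 69 in wild type. The count of 0 was in knockout 1, the library of 6.5 M counts. None passed (edgeR adjusted p of 0.865 or more for both).

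Measured against its neighbour within each library, Tnfrsf25 was still higher in the knockout. In cortex there were 2.18, 4.97 and 3.65 reads of Tnfrsf25 per 100 reads of Plekhg5 in wild-type libraries 1 to 3, and 7.18, 13.7 and 11.8 in knockout libraries 1 to 3. In hippocampus these ratios were 9.22, 10.3 and 11.4 in wild type and 15.8, 19.5 and 18.7 in knockout. In olfactory bulb the mean was 5.89 ± 0.992 in wild type and 10.3 ± 2.07 in knockout, and in cerebellum 6.68 ± 2.29 and 13.5 ± 3.25 (SD, n = 3). The ratio did not overlap between genotypes in any region. It rests on the same Tnfrsf25 counts as the levels above and is therefore no separate evidence.

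Within 1 Mb on each side of Tnfrsf25, a window chosen after its values were seen, 29 genes were in the tables and none passed the threshold in a knockout comparison. In cortex 17 of 19 tested genes of the window had a positive log2 fold change, with a median of 0.27, beside 50.1% and a median of 0.00 over all genes. In olfactory bulb 14 of 18 were positive (median 0.10), beside 47.8% of all genes, in cerebellum 12 of 19 (0.11), beside 43.1%, and in hippocampus 11 of 19 (0.08), beside 46.2%. At an unadjusted p under 0.05 there were 2 of the window's genes in cerebellum, 4 in cortex, 2 in hippocampus and 0 in olfactory bulb. Over all genes the share at that threshold was 1.89%, 5.64%, 4.01% and 2.43% in the same order. Phf13, a chromatin protein, singled out here after its values were seen, was higher without overlap in each region, at 0.79 (SE 0.28), 0.40 (SE 0.15), 0.38 (SE 0.16) and 0.28 (SE 0.21) in cerebellum, cortex, hippocampus and olfactory bulb. Its edgeR adjusted p was 0.949, 0.858, 0.953 and 0.992.

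**Figure D3:**
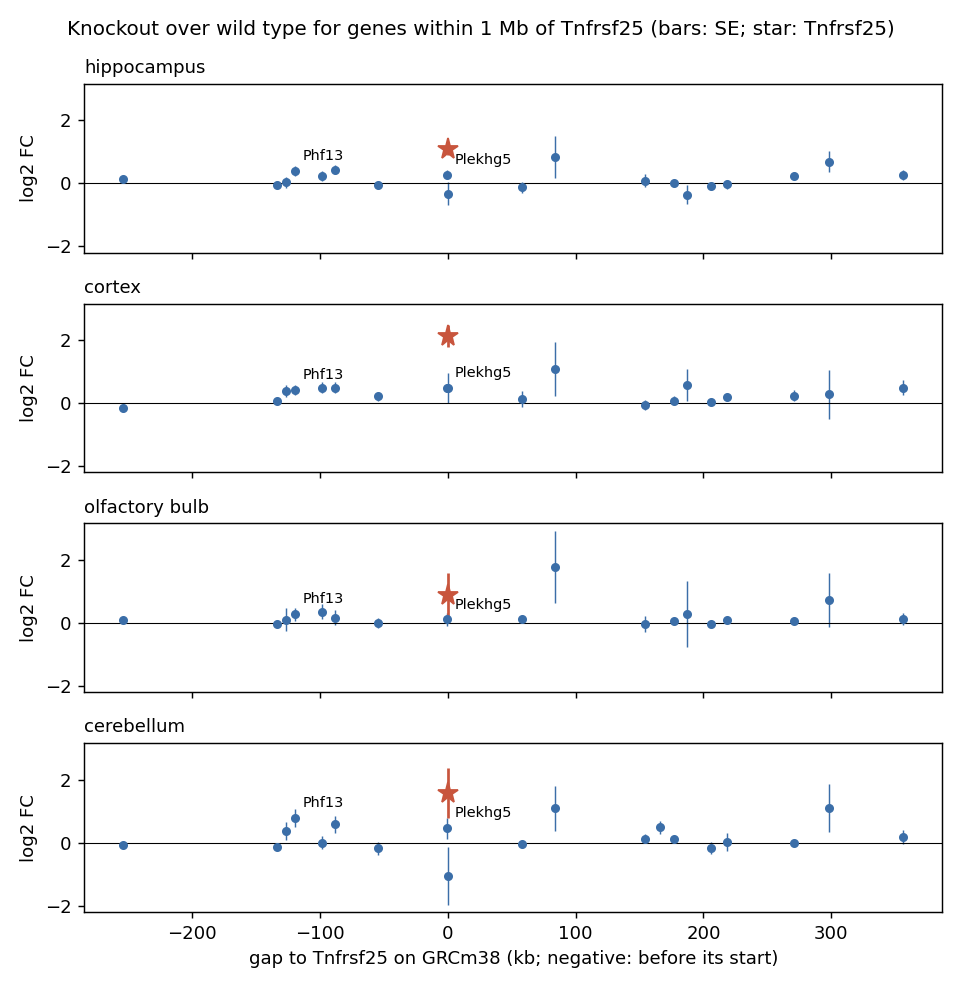
Log2 fold change of knockout over wild type (edgeR) of Tnfrsf25 and of the tested genes within 1 Mb, against the distance from Tnfrsf25 in kilobases, in each region; each point is 1 gene and bars are SE. Tnfrsf25 sits at distance 0, at 2.12 in cortex and 1.07 in hippocampus, and 17 of the 19 other cortex points lie above 0.

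Among the 28 receptors of the TNF superfamily that were compared per length, Tnfrsf25 was one of the most abundant in hippocampus and of middle rank elsewhere. As a mean wild-type level in CPM per kilobase of exon it had 7.38 in hippocampus (rank 3), 1.14 in cortex (rank 8), 0.701 in olfactory bulb (rank 13) and 0.264 in cerebellum (rank 14). On the same scale the hippocampus had 28.7 of Tnfrsf21, known as death receptor 6, 12.6 of Tnfrsf19, 3.67 of the TNF receptor Tnfrsf1a and 2.70 of the lymphotoxin receptor Ltbr. In the knockout libraries Tnfrsf25 had 15.5 CPM per kilobase in hippocampus (rank 2), 4.96 in cortex (rank 3), 1.32 in olfactory bulb (rank 7) and 0.803 in cerebellum (rank 11).

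**Figure D4:**
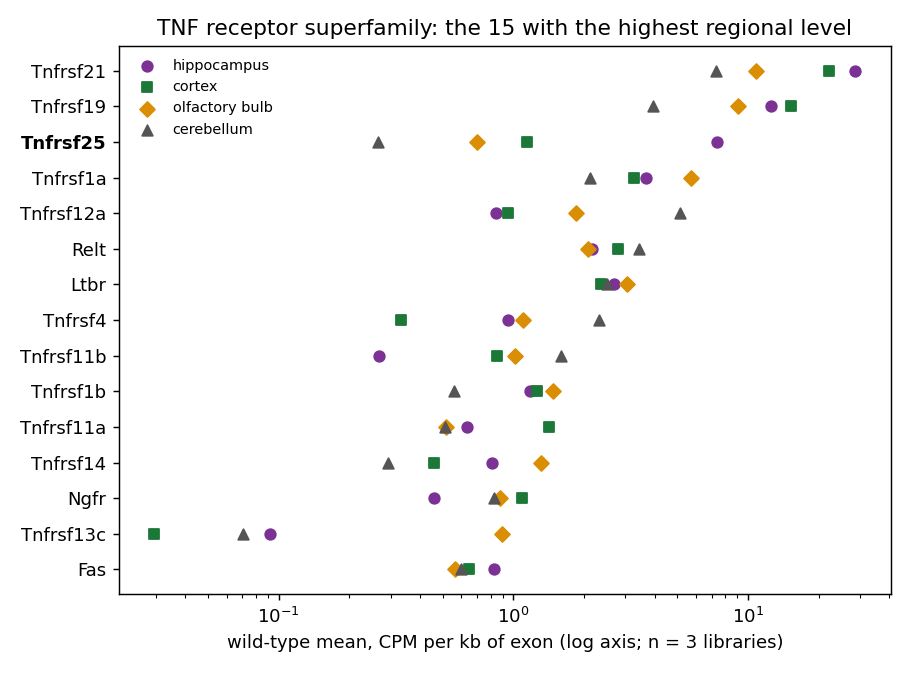
Mean wild-type level in each region of the 15 TNF receptor superfamily genes with the highest regional level, in CPM per kilobase of exon on a log axis (n = 3 libraries per region). Tnfrsf25 spans from 0.264 in cerebellum to 7.38 in hippocampus.

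The ligand of the receptor was nearly undetected. Tnfsf15 had 23 reads in the 24 libraries, was at 0 in 16 of them and reached at most 0.326 CPM, so it was tested in no comparison. In hippocampus, where the receptor was highest, it had 1 read in the 6 libraries.

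The pathway was compared between genotypes over lists that held 81 counted genes in 3 groups, signalling downstream of death receptor 3, the other receptors and the TNF ligands. By edgeR, 0 of 56 tested list genes were called in cerebellum, 0 of 55 in cortex, 0 of 57 in hippocampus and 0 of 58 in olfactory bulb, and DESeq2 also called 0 in each region. At an unadjusted p under 0.05 there were 3, 4, 2 and 1 list genes in that order, beside the shares of all genes given above. Over all genes tested, edgeR called only 0.00644% in cerebellum, 0.00634% in cortex, 0.0062% in hippocampus and 0.0253% in olfactory bulb, or 1, 1, 1 and 4 genes, so that a count of 0 among the list genes does not set them apart from other genes.

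For the means over regions, 0 of 65 list genes were called by limma, 4 had an unadjusted p under 0.05 (5.06% of all genes did), and 0.0114% of all genes were called. The 3 list genes with the smallest unadjusted p in any of the 5 knockout comparisons, each given where its own p was smallest, were Tnfrsf13b, a receptor of B cells, at -1.39 in hippocampus (SE 0.39, edgeR adjusted p = 0.953), the death ligand Tnfsf10 at -0.72 in hippocampus (SE 0.24, edgeR adjusted p = 0.953), and Fadd at -0.87 over regions (SE 0.31, limma adjusted p = 0.908).

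Among the proximal signalling components, Tradd, Ripk1 and Traf2 had values on both sides of 0, while those of Fadd and Casp8 were negative throughout. The adaptor Tradd had a log2 fold change of -0.28 in cerebellum, 0.36 in cortex, 0.20 in hippocampus and -0.24 in olfactory bulb. The kinase Ripk1 had -0.56, -0.20, -0.14 and 0.22 in the same order, and the ubiquitin ligase Traf2 had -0.14, 0.32, 0.17 and -0.38. On the apoptotic branch, Fadd had -0.80, -0.29, -0.45 and -0.73, and Casp8, the initiator caspase, had -0.58, -0.21, -0.18 and -0.71. Both had negative values in all 4 regions, and neither passed the test in any. The value of Fadd over regions, -0.87, is an average of log2 CPM and was below each of its 4 regional edgeR values. The SE was 0.93 for Fadd and 0.97 for Casp8 in cerebellum, and 0.55 and 0.99 in olfactory bulb. In each of these regions 1 knockout library was low in depth and in genes detected, and had many list genes at 0. These were 37 of 81 in cerebellum knockout 1 and 36 of 81 in olfactory bulb knockout 2.

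Over the 38 signalling genes, the number with a positive log2 fold change was 11 of 36 tested in cerebellum (median -0.12), 21 of 35 in cortex (0.07), 18 of 36 in hippocampus (-0.00) and 16 of 36 in olfactory bulb (-0.04). Over all genes the medians were -0.04, 0.00, -0.02 and -0.01. Of the other death-domain receptors, Tnfrsf1a had 0.28, 0.10, -0.35 and -0.08 in cerebellum, cortex, hippocampus and bulb. Fas, the receptor of Fas ligand, had 0.90, 0.11, 0.45 and 0.69, and Tnfrsf21 had 0.14, 0.12, 0.15 and 0.26. No test of Tnfrsf25 against these receptors was made.

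**Figure D5:**
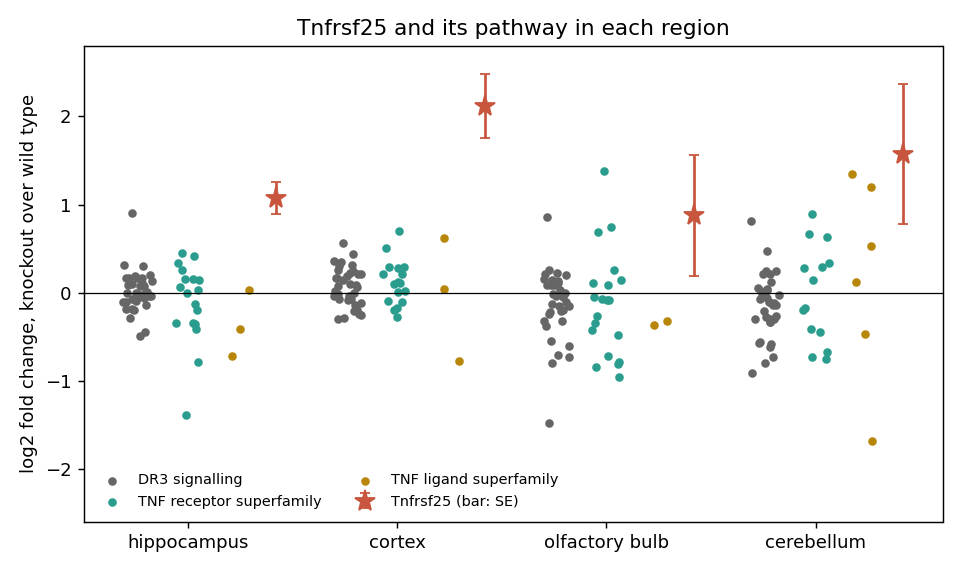
Log2 fold change of knockout over wild type of Tnfrsf25 and of the tested genes of the signalling, receptor and ligand lists, in each region; each point is 1 gene, colours mark the lists and the bar on Tnfrsf25 is its SE. Tnfrsf25 is at 1.57, 2.12, 1.07 and 0.88 in cerebellum, cortex, hippocampus and olfactory bulb, and none of the list genes was called.

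Few genes of the pathway were called higher in the wild-type hippocampus, where Tnfrsf25 was highest. Of 63 list genes tested with edgeR, 8 were called in hippocampus against the mean of the other three regions, 3 higher and 5 lower, where 25.9% of all genes were called (15.3% higher, 10.6% lower). Tnfrsf21 was higher by 1.22 (adjusted p = 1.98e-06), Tnfrsf19 by 0.59 (adjusted p = 0.0062) and the NF-κB subunit Relb by 1.0 (adjusted p = 0.00108). Those lower included the MAP kinase Mapk9 (-0.32), the kinase partner Tab1 (-0.40), the decoy receptor Tnfrsf11b (-2.04) and Tnfrsf12a (-1.32), with adjusted p from 0.00586 to 0.0139. Tradd, Fadd, Ripk1 and Casp8 were not among the 8.

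In cerebellum, where Tnfrsf25 was lowest, 27 of the 63 were called (14 higher, 13 lower), where 46.8% of all genes were (22.7% higher, 24.1% lower). Traf2 was higher there by 0.72 (edgeR adjusted p = 0.00165) and Tnfrsf1a was lower, at -0.95 (edgeR adjusted p = 0.000555). In cortex 19 were called (8 higher and 11 lower, beside 33.4% of all genes, 19% higher and 14.5% lower) and in olfactory bulb 21 (15 higher and 6 lower, beside 35.9% of all genes, 18.4% higher and 17.5% lower).

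Among 13207 other genes with a mean log2 CPM of at least 1, those whose log2 CPM was most like that of Tnfrsf25 over the 24 libraries included Zfhx2 (r = 0.933), Chrna7 (0.932), Cpeb1 (0.921), Arhgap39 (0.92) and Plekhg5 (0.919). Over the 12 wild-type libraries alone these correlations were 0.899, 0.969, 0.916, 0.939 and 0.926. The neighbouring gene Plekhg5 was thus among the 6 most similar. They are descriptions over libraries of 4 regions, and the 6 libraries of a region share their tissue.

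After the group means were removed, the most similar genes were others: Sdad1 (r = 0.865), Arid3b (0.864), Zmynd8 (0.859), ENSMUSG00000078484 (0.859), Gm14286 (0.857) and Abcc10 (0.856). Their own deviations correlated with that of the unassigned share at 0.41, 0.628, 0.544, 0.585, 0.636 and 0.696, beside 0.581 for Tnfrsf25. The part of the unassigned share in the likeness was not tested.

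Defining markers of T cells, in which death receptor 3 is best known, were at or near 0 in many libraries. Cd3e, a chain of the T-cell receptor complex, had 44 reads in all, 0 to 0.581 CPM per library and 0 in 8 libraries, and Cd3g had 18 reads and was at 0 in 15. Cd8a had 54 reads and at most 2.23 CPM, Lck 486 and at most 3.23 CPM, and Cd4 875 and at most 9.36 CPM. The summed level of 16 T-cell and innate lymphoid markers, leaving out Thy1, which neurons express too, was 9.59 to 12 CPM in hippocampus knockout and 11 to 11.2 CPM in wild type. In cortex it was 17.5 to 23.2 CPM in knockout and 14.7 to 23.0 CPM in wild type, in olfactory bulb 6.65 to 15.1 and 14.1 to 21.7, and in cerebellum 3.51 to 5.98 and 4.59 to 5.62. The genotypes overlapped on this sum in each region. The part of such cells in the levels of Tnfrsf25 was not tested.

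In the lists below, markers of other cells moved, sharing a sign or differing in summed level between genotypes, with none called by edgeR. In hippocampus the 8 choroid plexus markers all had negative values (median -3.83), with a summed level of 178 to 216 CPM in knockout and 165 to 3378 CPM in wild type, where Ttr ranged from 4.55 to 2174 CPM. The wild-type range of the summed level held the whole knockout range, so the genotypes overlapped on it. The 9 meningeal and the 8 inhibitory neuron markers were also all negative in hippocampus, with medians of -0.51 and -0.26. The 8 hippocampus markers summed to 908 to 985 CPM in knockout and 791 to 896 CPM in wild type, with 5 of 8 positive. In cortex all 6 tested olfactory bulb markers were negative. The 7 counted ones summed there to 11 to 12.7 CPM in knockout and 20.0 to 36.4 CPM in wild type. In cerebellum the 3 tested were positive. The same 7 summed there to 60.3 to 72.4 CPM in knockout and 23.8 to 33.9 CPM in wild type. Eomes led, at 50.9 to 67.5 CPM in knockout and 19.6 to 28.2 CPM in wild type. The part of these markers' differences in the levels of Tnfrsf25 was not tested.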

How the data were processed

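For each library the authors deposited a table of unnormalised counts, whole numbers of reads assigned to each gene. RNA was extracted with TRIzol and libraries were stranded, per the labels' protocols. The submitters' processing notes name HTSeq 0.6.1p1, STAR 2.5.1b, bcl2fastq 2.17.1.14 and the mm9 build. Their settings and any use of strand in counting are not given in the sources here. The summary entries that name no gene entered neither library sizes nor tests, and reads in no feature came to between 20.3% and 62.9% of a library. Names, exon lengths, 3′ UTRs and neighbours came from GENCODE M21 on GRCm38, a later build, which matched 32897 of 37620 identifiers.

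CPM used TMM scaling over all 24 libraries. Genotypes were compared within each region, and regions within each genotype, with edgeR 4.0.16 in R 4.3.3 (quasi-likelihood F-test, TMM, robust, filterByExpr with a minimum count of 10, two-sided, Benjamini-Hochberg over all genes tested, threshold 0.05). The mean over regions was tested with limma 3.58.1 on log2 CPM (prior count 2) averaged per genotype and replicate number. DESeq2 1.42.0, other scalings, filters, a replicate block, the unassigned share as covariate and leaving out libraries were alternatives. Only the edgeR fit of genotypes was tested on simulated data, drawn from the cortex libraries with the same dispersion for every gene. The limma, DESeq2 and regional fits were not tested in this way. No p-value is given for the chosen gene in any contrast, also where one had been planned within the knockout libraries, since their levels entered its choice.

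The gene, the lists and the tests were chosen with earlier results of these data known. Named are the gene, the ligand and proximal signalling genes, 3 receptors, the list genes with the 3 smallest p-values, the 3 nearest genes on each side, the 6 most similar genes by each measure, defining T-cell markers and the leading members of marker lists that moved. Some genes are not reported here. Same-numbered knockout and wild-type libraries deviated together in cortex (correlations 0.485, 0.648 and 0.252) and in the means over regions (0.149, 0.232 and 0.248), so the numbers were taken to pair them there from the data, as no label gives a pairing. All p-values given are from the fits without this pairing. No label ties same-numbered libraries of different regions to each other, though the mean over regions joins them. Replicates of a group differed by more than sampling noise in every pair.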

Additional observations from a re-analysis of the deposited data

Results flagged for a closer look

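Tnfaip3, which encodes the NF-κB inhibitor A20 and belongs to the signalling list, had opposite directions in different regions without overlap between genotypes. Its log2 fold change of knockout over wild type was -0.91 (SE 0.89) in cerebellum, 0.44 (SE 0.16) in cortex and 0.30 (SE 0.18) in hippocampus. In olfactory bulb, where the genotypes overlapped, it was -0.60 (SE 0.94), and over regions -0.81 (SE 0.33, limma adjusted p = 0.908). In cerebellum the knockout libraries had 0, 87 and 96 reads and the wild-type libraries 212, 120 and 108. The count of 0 is in knockout 1, which had 6.5 M counts and only 13741 genes detected. That library enters the value over regions, which averages log2 CPM and is not the mean of the regional edgeR values. Over all genes tested, 7.61% in cortex and 5.65% in hippocampus were higher in the knockout without overlap. The share lower without overlap in cerebellum is not given here, so the lack of overlap does not set Tnfaip3 apart. The difference between regions was not tested.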

How the results depend on the processing

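The log2 fold change of Tnfrsf25 kept its sign under every alternative run in each region and over regions (60 of 60 values). As the gene was chosen on this contrast and its genotypes did not overlap in any region, leaving out libraries could hardly reverse the sign. Leaving out 1 library at a time, the log2 fold change lay between 0.86 and 1.91 in cerebellum, 1.85 and 2.38 in cortex, 0.89 and 1.26 in hippocampus, and 0.72 and 1.05 in olfactory bulb. Leaving out 1 replicate number at a time, it lay between 1.15 and 1.41 over regions. With the replicate block it was 2.11 (SE 0.20) in cortex and 1.32 (SE 0.24) over regions. The numbers were taken to pair the libraries there from the data only, as no label gives a pairing. In the other regions the libraries share only a number, and the block gave 1.39 (SE 1.12) in cerebellum, 1.09 (SE 0.15) in hippocampus and 0.90 (SE 1.02) in olfactory bulb. Counts of list genes called by genotype were 0 in all 54 values, under the block too. As the main fits called few genes of any kind, these zeros are no measure of stability. By wild-type region the counts of list genes called (76 values) stayed within 1.5 times, also under the block. The regional differences of Tnfrsf25 in the knockout libraries moved by less than the spread between replicates in 74 of 76 values. The exceptions were in cerebellum, at -3.30 without knockout 1 and -3.28 without the libraries under 8 M counts, and leaving out 1 library at a time gave -3.30 to -2.35 there. Between 10 and 13 reads stand behind each cerebellum wild-type value and 16 to 37 behind those of the bulb, which limits the precision there.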
